A study of Mus musculus with 34 samples.

Results

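A set of 10 genes that carry glucose into the cell and through glycolysis was followed across a mouse embryonic stem cell (ESC) differentiation with and without the long non-coding RNA Handsdown (Hdn). They are the glucose transporters Slc2a1 and Slc2a3, the hexokinases Hk1 and Hk2, the phosphofructokinases Pfkl and Pfkp, the lower glycolytic enzymes Aldoa and Pgk1, the lactate dehydrogenase Ldha and the pyruvate dehydrogenase kinase Pdk1. They were taken by gene name, as 10 of the 52636 gene rows of the deposited table, and all 10 were among the 14196 genes kept by the filter on low values. Total RNA was sequenced from F1(G4) ESCs of the strain 129S2/C57Bl6J whose titles call them Hdn null or wild type. Both genotypes were taken as undifferentiated ESCs from 2i medium and on days 3, 4, 5 and 6, after hanging drops and culture on fibronectin with BMP4 at 20 ng/mL and no serum. This gives 10 groups of 3 libraries, 30 in all, and n = 3 for each mean ± SD below. The labels do not state the sequence change behind the null, the number of mutant clones, or whether replicates came from separate cultures, so the p-values measure the spread between these libraries only. Brachyury mutants are named in the series' design text and dissected hearts in a growth protocol, and the sample titles and treatment protocol were followed instead. A further 4 samples of the series were not analysed here.

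Glucose enters cells through facilitative transporters of the SLC2 (GLUT) family, is trapped by hexokinase, committed to glycolysis by phosphofructokinase, split by aldolase and oxidised to pyruvate, with ATP made at the phosphoglycerate kinase step. Lactate dehydrogenase reduces pyruvate to lactate, and pyruvate dehydrogenase kinase limits the use of pyruvate within the mitochondria by switching off the pyruvate dehydrogenase complex. Most steps have several isozymes that differ in tissue and control, many of these genes are known targets of the hypoxia-inducible factor HIF1 and of MYC, and pluripotent cells are known for high glycolysis.

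The libraries held 43.3 to 68.4 M reads as inferred from the smallest RPKM values, and 10607 to 12004 genes at 1 RPKM or more. Hdn, listed as 5033428I22Rik, was at 0 to 0.0121 scaled RPKM in the 15 mutant libraries and at 0 to 0.342 in the 15 wild-type libraries. Mutant and wild-type libraries did not overlap on days 4, 5 and 6, and at earlier stages wild type itself was at or near 0. Some libraries stood apart. Mutant day 4 replicate 3, mutant day 5 replicate 3 and all 3 mutant day 6 libraries held transcripts of mature heart and adult red cells. In each of these 5 libraries, 14 or 15 of 16 heart markers were above all wild-type libraries of the same day. The ventricular light chain Myl2 was at 17.1 in mutant day 4 replicate 3, 20.6 in mutant day 5 replicate 3 and 45.2 to 128.7 on mutant day 6, against at most 0.0721 in the wild-type libraries of those days. The summed heart list does not separate them, because Fabp3 makes up most of it in wild type: the sum was 261 in mutant day 4 replicate 3, against 345 to 433 on wild-type day 4, and 312.7 in mutant day 5 replicate 3, against 238 to 708 on wild-type day 5. Actc1 on mutant day 4 was lowest in replicate 3, at 20.2, against 32.0 and 25.2 in the other mutant libraries. The summed level of 5 red-cell markers reached 73.1 on mutant day 4, 109.5 on mutant day 5 and 249.5 to 719.9 on mutant day 6, against at most 0.672 on wild-type days 4 and 5 and 0.882, 0.397 and 49.3 on wild-type day 6, where replicate 3 stood apart in red-cell transcripts with Myl2 at 0.0721. Among ESCs, mitochondrially encoded RNA made up 3.02, 6.39 and 6.22% of the RPKM in mutant libraries, against 1.67, 1.46 and 2.15% in wild-type libraries. The Y-linked Eif2s3y was at 5.38 to 16.2 scaled RPKM in mutant ESCs, against 0.255 to 0.450 in wild-type ESCs, and at 3.36 to 4.16 on wild-type day 3. The part of these differences in the results below was not tested unless a value without those libraries is given. In bulk samples, fewer cells of a type and less RNA per cell cannot be told apart.

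Promoter sequence was examined because several of the genes moved together. HIF1 binds the core ACGTG or GCGTG, which was searched on both strands (as CACGT and CACGC on the other) in the window from 250 bases before to 50 bases after each start in RefSeq, build GRCm38.p6. Windows were found for 9 of the 10 genes, 14 in all. Of these, 11 held at least 1 match, against 43.8% of all 32851 windows of this length. ACGTG was in 7 of the 14 windows and in 19.6% of all, and GCGTG in 7 of the 14 and in 32.4% of all. Of the 3 Aldoa windows, 2 overlap by 224 bases and hold the same CACGT match, so that site is counted in both. The E-box CACGTG, bound by MYC among others, contains ACGTG on both strands. It was in 1 of the 14 windows, that of Ldha, and in 7.15% of all. The windows of 4 genes whose RNA rose between ESC and day 3 (Slc2a1, Pfkl, Pgk1 and, as the more upstream of 2, Ldha) and of 2 whose RNA fell (Hk2 and Pfkp) are shown 5′ to 3′ on the coding strand, with matches in capitals. They lie at chr4:119108495-119108794 (plus strand), chr10:78009758-78010057 (minus), chrX:106186850-106187149 (plus), chr7:46845554-46845853 (plus), chr6:82774405-82774704 (minus) and chr13:6648722-6649021 (minus).
Slc2a1: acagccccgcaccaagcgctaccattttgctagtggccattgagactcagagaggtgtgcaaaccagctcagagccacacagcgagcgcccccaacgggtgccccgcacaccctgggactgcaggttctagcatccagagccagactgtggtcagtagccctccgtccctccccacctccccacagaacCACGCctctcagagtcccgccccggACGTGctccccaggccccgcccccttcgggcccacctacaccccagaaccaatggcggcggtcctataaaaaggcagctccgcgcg
Pfkl: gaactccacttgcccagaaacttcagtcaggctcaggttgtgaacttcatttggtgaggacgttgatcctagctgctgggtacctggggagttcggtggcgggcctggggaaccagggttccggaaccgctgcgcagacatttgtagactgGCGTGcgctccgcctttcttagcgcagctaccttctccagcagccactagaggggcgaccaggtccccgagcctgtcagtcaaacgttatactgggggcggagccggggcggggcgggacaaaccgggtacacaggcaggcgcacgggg
Pgk1: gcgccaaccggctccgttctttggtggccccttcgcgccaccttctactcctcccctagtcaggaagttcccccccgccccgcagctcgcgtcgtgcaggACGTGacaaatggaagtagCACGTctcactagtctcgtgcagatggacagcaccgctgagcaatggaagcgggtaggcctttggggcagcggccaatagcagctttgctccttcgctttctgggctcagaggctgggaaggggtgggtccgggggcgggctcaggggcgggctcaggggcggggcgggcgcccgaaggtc
Ldha: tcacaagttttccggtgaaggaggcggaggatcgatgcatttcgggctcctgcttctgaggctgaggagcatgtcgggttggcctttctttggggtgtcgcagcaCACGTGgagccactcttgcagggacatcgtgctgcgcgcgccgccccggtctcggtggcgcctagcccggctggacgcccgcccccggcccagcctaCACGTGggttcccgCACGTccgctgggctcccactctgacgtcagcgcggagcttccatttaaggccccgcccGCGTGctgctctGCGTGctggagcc
Hk2: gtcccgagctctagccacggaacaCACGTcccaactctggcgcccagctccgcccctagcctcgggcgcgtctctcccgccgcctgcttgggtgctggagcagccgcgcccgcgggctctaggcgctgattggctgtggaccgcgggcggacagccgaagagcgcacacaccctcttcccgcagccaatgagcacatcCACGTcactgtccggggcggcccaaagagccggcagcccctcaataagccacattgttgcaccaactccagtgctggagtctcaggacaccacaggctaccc
Pfkp: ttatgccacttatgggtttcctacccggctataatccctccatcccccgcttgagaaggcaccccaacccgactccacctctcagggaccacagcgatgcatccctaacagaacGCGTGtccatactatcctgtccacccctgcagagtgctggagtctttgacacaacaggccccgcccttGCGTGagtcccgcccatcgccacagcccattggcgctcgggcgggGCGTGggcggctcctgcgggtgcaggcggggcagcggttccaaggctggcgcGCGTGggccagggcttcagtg
Slc2a1 and Pgk1 held 2 separate matches each, at -61 and -36 and at -150 and -131 from the start. The Ldha window held 5 capital runs, of which 2 are CACGTG, and Pfkl held 1 at -99. Matches were not limited to the genes that rose: Hk2 held 2 and Pfkp held 4. A match describes the letters and shows no binding.

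Levels of the 10 genes spanned from a group mean of 1.80 scaled RPKM for Pfkp to 1597 for Pgk1. RPKM is per length, so levels can be set side by side between genes. Aldoa, Pgk1 and Ldha were the most abundant in every group, with group means from 274 to 1597 scaled RPKM, followed by the transporters. Pdk1 and Pfkp were among the least abundant from day 3 on, with group means of 1.80 to 9.65. The order of Slc2a1 and Slc2a3 turned over after the ESC stage. In ESCs, Slc2a3 stood above Slc2a1 in all 6 libraries, and on days 3 to 6 Slc2a1 stood above Slc2a3 in all 24. Within the abundant trio, neighbours in the order mostly lay within each other's spread. On wild-type day 6, for example, Aldoa was at 951 ± 94.4, Pgk1 at 934 ± 75.8 and Ldha at 875 ± 87.6. Processed copies of genes such as Aldoa, Pgk1 and Ldha exist in the genome, and how reads shared between copies were counted is not given in the sources used here. The Aldoa row is the one of 2 Ensembl IDs with this symbol that carries the higher level.

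**Figure D1:**
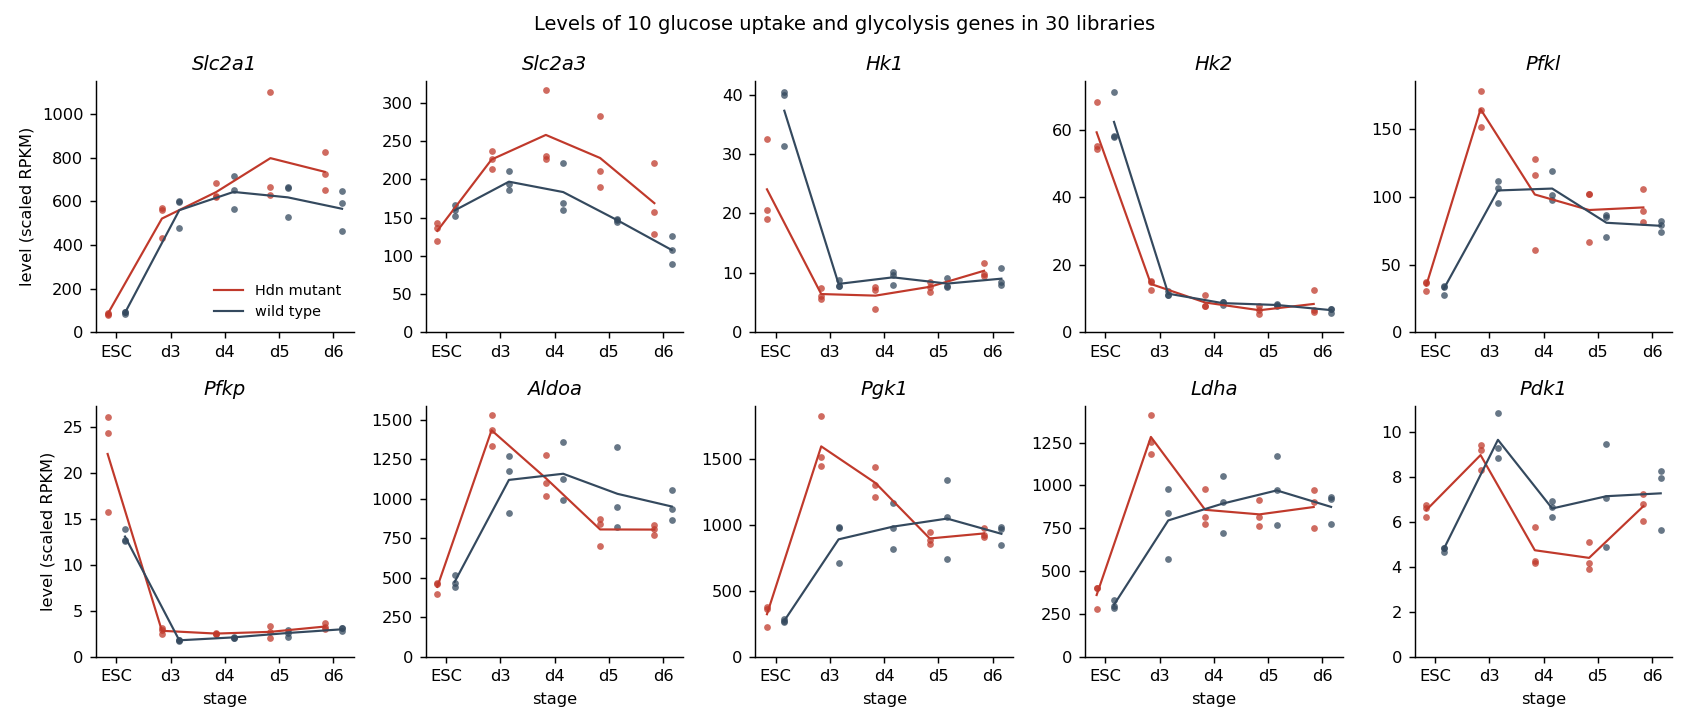
Level of each gene (scaled RPKM, linear axis from 0) by stage in Hdn mutant (red, left) and wild-type (dark, right) libraries; points are the 3 libraries of a group and lines join group means. Slc2a1 is at most 93.5 in the ESC libraries and at least 432.7 in the later ones, Hk1, Hk2 and Pfkp fall after ESC, and Pgk1, Ldha and Pfkl are highest in the mutant on day 3.

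The first comparison asks how the genes differ between ESCs and day 3 of differentiation in each genotype. Between these stages 7 of the 10 genes rose and 3 fell in the mutant, and 6 rose and 3 fell in wild type. Slc2a1, Pfkl, the lower-pathway genes and Pdk1 rose in both genotypes and Slc2a3 in the mutant, while both hexokinases and Pfkp fell in both. A gene counts as changed at an adjusted p under 0.05, the limma test with Benjamini-Hochberg adjustment over all 14196 genes on log2(scaled RPKM + 0.5). By that rule 72.4% of all genes changed in the mutant (33.4% rose and 39% fell) and 72.1% in wild type (34.7% rose and 37.4% fell), so the counts of 10 and 9 of 10 are to be read against a very broad change. The median log2 change was 1.23 over the 10 genes in the mutant, where that of all genes was -0.06, and 1.08 in wild type, where that of all genes was 0. The day 3 and ESC libraries did not overlap for any of the 10 genes in either genotype. How many of all genes lacked overlap was not counted, and with 72.4 and 72.1% of them changed, it does not set the 10 genes apart. Medium and culture form change between these stages together with cell state and cannot be told apart.

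The transporters moved by very different amounts. Slc2a1, the GLUT1 carrier that supplies basal uptake in most cells, rose most of all. Slc2a1 had 559.8, 570.4 and 433 scaled RPKM in the day 3 mutant libraries, against 82.5, 85.6 and 80.5 in the mutant ESC libraries. In wild type it had 479, 602 and 597 on day 3, against 91.6, 93.5 and 81.5 in ESCs. That is a 6.29-fold difference of means in the mutant (log2 change 2.63 ± 0.17 SE, adjusted p = 2.1e-12) and 6.29-fold in wild type (2.64 ± 0.17, adjusted p = 2.47e-12). Slc2a3, the high-affinity GLUT3 carrier known from neurons and early embryos, differed far less. Slc2a3 had 227, 237 and 214 scaled RPKM in the day 3 mutant libraries, against 119, 143 and 136 in the mutant ESC libraries. The wild-type libraries held 186, 211 and 194 on day 3, against 159.7, 167 and 152 at the ESC stage. It rose in the mutant (0.77 ± 0.18, adjusted p = 0.000436), and in wild type its difference of 0.30 ± 0.18 did not pass (adjusted p = 0.126), although the libraries did not overlap.

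Both hexokinases, which phosphorylate glucose on entry, fell. Hk1 is the widespread form and Hk2 the inducible form of muscle and growing cells. Hk1 had 7.48, 6.16 and 5.62 scaled RPKM in the day 3 mutant libraries, against 32.6, 18.99 and 20.6 in the mutant ESC libraries. In wild type it had 7.77, 7.83 and 8.78 on day 3, against 40.02, 40.5 and 31.4 in ESCs. The log2 change was -1.79 ± 0.20 in the mutant and -2.12 ± 0.20 in wild type. Hk2 had 15.3, 15.0 and 12.6 scaled RPKM in the day 3 mutant libraries, against 68.3, 54.5 and 55.3 in the mutant ESC libraries. The wild-type libraries held 10.99, 11.1 and 12.2 on day 3, against 57.9, 71.3 and 58.2 at the ESC stage. Its log2 change was -2.01 ± 0.19 in the mutant and -2.40 ± 0.19 in wild type, and the day 3 mean was 0.241 times the ESC mean in the mutant and 0.183 times in wild type.

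The phosphofructokinases, which set the committed step, moved in opposite directions. Pfkl, the liver form, rose. Pfkl had 178, 165 and 152 scaled RPKM in the day 3 mutant libraries, against 30.3, 37.2 and 36.4 in the mutant ESC libraries. In wild type it had 95.7, 107 and 112 on day 3, against 34.2, 33.7 and 27.7 in ESCs. Its log2 change was 2.24 ± 0.20 in the mutant and 1.71 ± 0.20 in wild type. Pfkp, the platelet form, fell. Pfkp had 2.92, 3.13 and 2.44 scaled RPKM in the day 3 mutant libraries, against 15.8, 26.1 and 24.4 in the mutant ESC libraries. The wild-type libraries held 1.82, 1.75 and 1.81 on day 3, against 12.7, 13.9 and 12.8 at the ESC stage. This was a fall by 2.73 on the log2 scale in the mutant and by 2.56 in wild type, with adjusted p = 5.92e-14 and adjusted p = 2.56e-13.

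The enzymes of the lower pathway rose together. Aldoa cleaves fructose 1,6-bisphosphate, Pgk1 makes the first ATP of the pathway and Ldha makes lactate. Aldoa had 1331, 1435 and 1532 scaled RPKM in the day 3 mutant libraries, against 398, 459 and 469 in the mutant ESC libraries. In wild type it had 909, 1271 and 1178 on day 3, against 516, 465 and 441 in ESCs. The log2 change of Aldoa was 1.70 ± 0.16 in the mutant and 1.23 ± 0.16 in wild type. Pgk1 had 1446, 1519 and 1826 scaled RPKM in the day 3 mutant libraries, against 227, 365 and 378 in the mutant ESC libraries. The wild-type libraries held 709, 978 and 987 on day 3, against 266, 269.9 and 287 at the ESC stage. Pgk1 thus stood 4.94-fold above ESC in the mutant and 3.25-fold in wild type (log2 change 2.33 ± 0.19 and 1.68 ± 0.19). Ldha had 1186, 1255 and 1409 scaled RPKM in the day 3 mutant libraries, against 281, 399.9 and 400.5 in the mutant ESC libraries. In wild type it had 569, 838 and 979.7 on day 3, against 330.1, 295 and 286 in ESCs. For Ldha the log2 change was 1.85 ± 0.19 in the mutant and 1.36 ± 0.19 in wild type. Pdk1, a kinase of the pyruvate dehydrogenase complex, moved least of the genes that rose in wild type. Pdk1 had 8.29, 9.43 and 9.19 scaled RPKM in the day 3 mutant libraries, against 6.22, 6.74 and 6.61 in the mutant ESC libraries. The wild-type libraries held 8.83, 9.29 and 10.8 on day 3, against 4.84, 4.85 and 4.66 at the ESC stage. Its change was 0.43 ± 0.17 in the mutant (adjusted p = 0.0242) and 0.94 ± 0.17 in wild type (adjusted p = 2.58e-05). With libraries scaled to the same sum, the mutant change of Pdk1 was 0.18 and did not pass (adjusted p = 0.344).

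**Figure D2:**
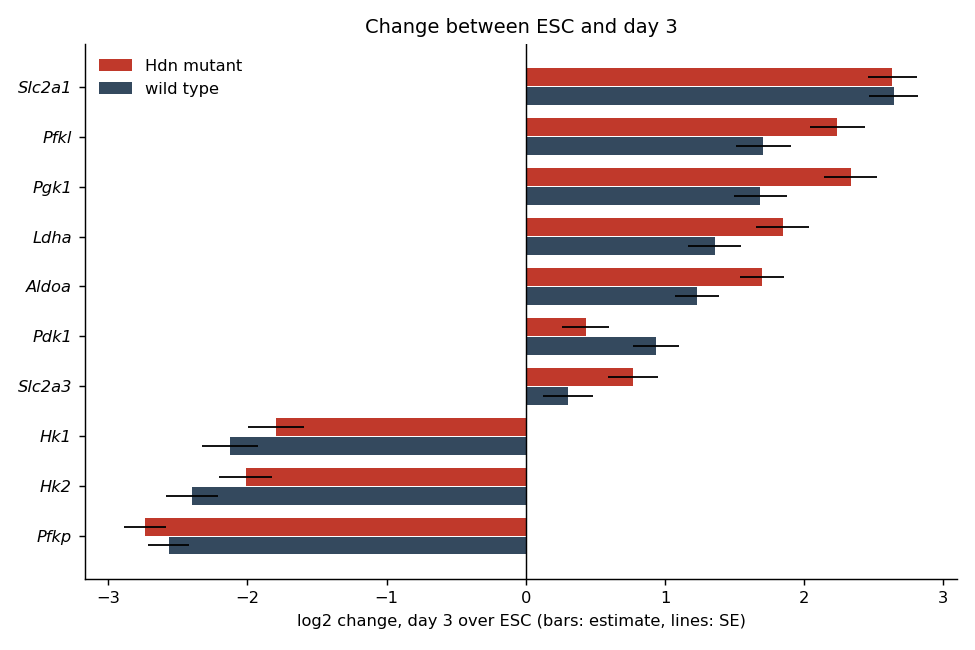
Log2 change of each gene on day 3 over ESC (x axis) in Hdn mutant (red, upper bar) and wild type (dark, lower bar); bars are the limma estimates and lines their standard errors. A group of 7 genes extends to the right, from Slc2a1 at 2.63 and 2.64 down to Slc2a3, and Hk1, Hk2 and Pfkp extend to the left.

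The balance of isozymes within each family was read from the same libraries as shares of summed scaled RPKM, described without a test because the genes and stages are those above. Slc2a3 made up 61.4 ± 2.06% of Slc2a1 plus Slc2a3 in mutant ESCs and 64.2 ± 0.763% in wild-type ESCs. By day 6 that share was 18.4 ± 2.43% in the mutant and 16.3 ± 4.55% in wild type. Pfkl held 84.5 ± 0.579% of the phosphofructokinase RNA on mutant day 3 and 76.04 ± 2.78% on wild-type day 3, where in ESCs it held 40.6 ± 1.45% in the mutant and 41.1 ± 1.60% in wild type. The muscle form Pfkm, which is not 1 of the 10 genes, took up most of the rest: its level lay between 15.3 and 39.98 scaled RPKM over all 30 libraries. Pfkp held 25.7 ± 4.74% in mutant ESCs and 16.99 ± 1.31% in wild-type ESCs, and from day 3 on its group means stayed between 1.31 and 2.81%. The heart-type lactate dehydrogenase Ldhb held 48.6 ± 4.92% of Ldha plus Ldhb in mutant ESCs and 51.2 ± 1.88% in wild-type ESCs, and the share was 10.7 ± 0.672% on mutant day 3 and 14.3 ± 1.25% on wild-type day 3. ESCs held the RNAs of the 2 subunits at about equal levels, and day 3 cells held mostly Ldha RNA. Hk2 stayed between 42.2 and 71.6% of Hk1 plus Hk2 in all 10 group means.

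**Figure D3:**
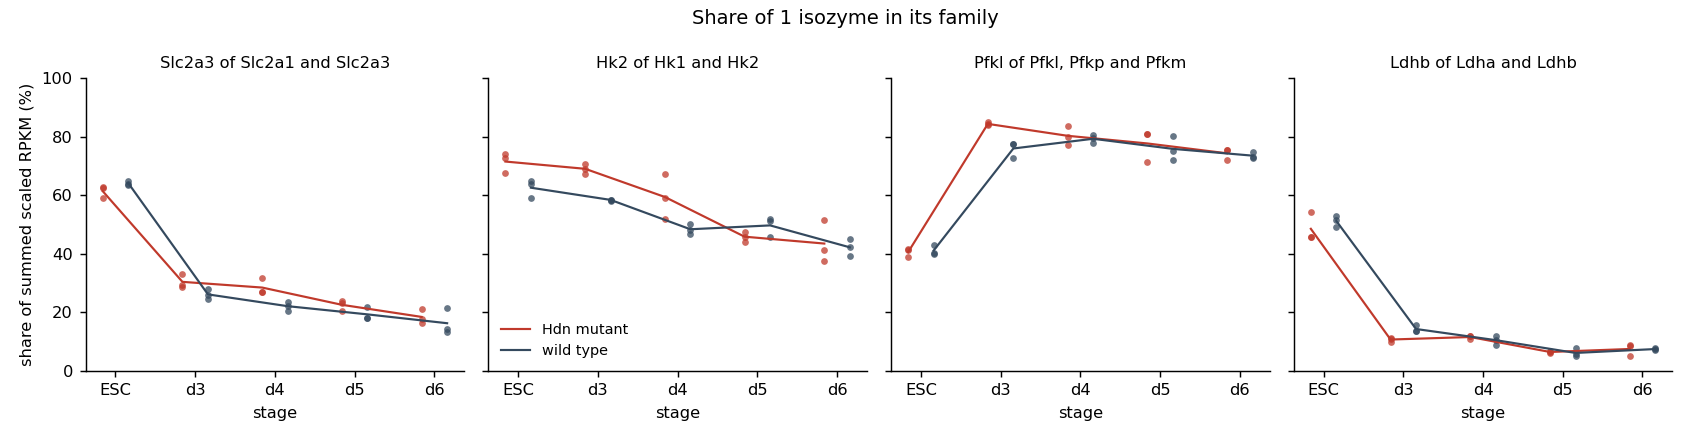
Share of 1 isozyme in its family (percent of summed scaled RPKM, axis from 0 to 100) by stage in Hdn mutant (red, left) and wild-type (dark, right) libraries; points are libraries and lines join means. Slc2a3 and Ldhb lose share and Pfkl gains it between ESC and day 3 in both genotypes, while the Hk2 share moves more slowly.

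After day 3 calls between neighbouring days were few. None of the 10 genes passed between days 3 and 4, 4 and 5, or 5 and 6 in wild type by limma at an adjusted p under 0.05, where 7.66, 4.04 and 0.782% of all genes passed. At an unadjusted p under 0.05, 1 of the 10 passed between days 3 and 4, 0 between days 4 and 5 and 1 between days 5 and 6. The share of all genes at that unadjusted threshold was not counted, so these counts have no background to be read against. In the mutant, 4 genes fell between days 3 and 4, where 11.3% of all genes fell and 26.6% changed either way. They were Pdk1 (-0.87 ± 0.17 SE, adjusted p = 0.000465), Pfkl (-0.76 ± 0.20, adjusted p = 0.00614), Hk2 (-0.68 ± 0.19, adjusted p = 0.00919) and Ldha (-0.58 ± 0.19, adjusted p = 0.024). Mutant Pfkl had 116, 128 and 60.7 scaled RPKM on day 4, against 178, 165 and 152 on day 3. The lowest of these is replicate 3, a library with heart transcripts, and without it the day 4 difference of Pfkl was -0.43 and did not pass (adjusted p = 0.0614). Ldha likewise was at -0.52 and did not pass without that library (adjusted p = 0.085). That library was not the only one to matter: the Ldha call was lost under 8 of 17 alternative settings, with adjusted p up to 0.0942. The Pfkl call was lost under 3 of 17. Mutant Pdk1 had 4.18, 4.28 and 5.76 on day 4, against 8.29, 9.43 and 9.19 on day 3, with no overlap. No gene passed between mutant days 4 and 5 or days 5 and 6 (backgrounds 9.63 and 3.17%). With an unadjusted p under 0.05, 3 and 2 of the 10 did, again with no share of all genes at that threshold to set beside them. Over days 3 to 6 the library values of Slc2a1 ran from 433 to 1101 in the mutant and from 462 to 715 in wild type, so the raised level lasted to the end of the course.

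The second comparison asks how Hdn mutant cells differ from wild type at each stage. No difference of the 10 genes reached a log2 change of 1 at any stage. In ESCs, 3 of the 10 differed: Pfkp and Pdk1 were higher in the mutant and Hk1 was lower. The share of all genes that differed in ESCs was 45.5%, with 22.4% higher and 23.1% lower, so this count is near the background. Pfkp had 15.8, 26.1 and 24.4 scaled RPKM in mutant ESCs, against 12.7, 13.9 and 12.8 in wild-type ESCs (log2 change 0.70 ± 0.15 SE, adjusted p = 0.000508). All mutant libraries were above all wild-type ones. Pdk1 had 6.22, 6.74 and 6.61 in mutant ESCs, against 4.84, 4.85 and 4.66 in wild-type ESCs, with no overlap (0.41 ± 0.17, adjusted p = 0.0476). Leaving out any 1 of the 6 ESC libraries lifted this adjusted p above the threshold (0.0548 to 0.124), while the difference itself stayed between 0.39 and 0.44. With the replicate block Pdk1 did not pass either (adjusted p = 0.0541). Hk1 had 32.6, 18.99 and 20.6 in mutant ESCs, against 40.02, 40.5 and 31.4 in wild-type ESCs (-0.65 ± 0.20, adjusted p = 0.0106). Mutant replicate 1 overlapped the wild-type libraries, and the call was lost without scaling (adjusted p = 0.0586), with libraries scaled to the same sum (0.124), and without mutant replicate 2 (0.081) or replicate 3 (0.0581). Of the 3 calls, 2 were higher and 1 lower, and both of those other scalings left 2 higher and 0 lower. The differences in mitochondrial RNA and Eif2s3y given above separate the same ESC libraries, and their part in these results was not tested.

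On day 3, 4 of the 10 genes were higher in the mutant and none was lower, where 6.2% of all genes were higher and 16.3% differed either way. The 4 were Pgk1, Ldha, Pfkl and Pfkp, that is the 2 phosphofructokinases of the set and the 2 enzymes that yield ATP and lactate. The median log2 difference of the 10 genes was 0.34, where that of all genes was -0.01. Pgk1 had 1446, 1519 and 1826 scaled RPKM in the mutant, against 709, 978 and 987 in wild type. The lowest mutant library lay far above the highest wild-type library, and the means differed 1.79-fold (log2 change 0.85 ± 0.19 SE, adjusted p = 0.0031). Ldha had 1186, 1255 and 1409 in the mutant, against 569, 838 and 979.7 in wild type, again without overlap (0.72 ± 0.19, adjusted p = 0.00984). Wild-type replicate 1 was the lowest day 3 library for Aldoa, Pgk1 and Ldha alike, and without it the Ldha difference was 0.50 and did not pass (adjusted p = 0.094). The same library held the streak marker T at 9.40 scaled RPKM, the lowest of the 6 day 3 libraries, where the highest reached 190.1. The full list of 9 streak and mesoderm markers did not put it lowest. That sum was 145.2 in wild-type replicate 1 and 137.2 in mutant replicate 1, where Pgk1 and Ldha were at 1446 and 1186. A link between these markers and the 10 genes was not tested. Pfkl had 178, 165 and 152 in the mutant, against 95.7, 107 and 112 in wild type (0.65 ± 0.20, adjusted p = 0.0257). Pfkp was low in all 6 libraries, at 2.92, 3.13 and 2.44 in the mutant, against 1.82, 1.75 and 1.81 in wild type (0.53 ± 0.15, adjusted p = 0.0156). Neither gene's libraries overlapped. Leaving out single day 3 libraries cost Pfkl its call in 4 of 6 cases (adjusted p up to 0.0983) and Pfkp in 3 of 6 (up to 0.0834), and the differences then stayed at 0.59 or more for Pfkl and 0.47 or more for Pfkp.

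The other 6 genes did not pass on day 3. Aldoa came nearest, with 1331, 1435 and 1532 scaled RPKM in the mutant, against 909, 1271 and 1178 in wild type (0.37 ± 0.16, adjusted p = 0.125). With libraries scaled to the same sum it passed (0.49, adjusted p = 0.0234). The values for Hk2 were 0.31 ± 0.19 and for Hk1 -0.32 ± 0.20, in opposite directions and neither passing, and Slc2a1 differed by -0.11 ± 0.17. Markers of other cells moved on the same day. The summed level of 7 trophoblast and surface ectoderm markers was 670.1 to 912 in the mutant, against 1823 to 2192 in wild type, with all 6 kept markers lower. Of 10 pluripotency markers 1 was higher and 7 were lower, and they summed to 353 to 381 in the mutant, against 326 to 408 in wild type. For both marker lists the background is 16.3% of all genes that differed either way on day 3. The part of these cell-type differences in the day 3 results was not tested.

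From day 4 on the difference in Pgk1, Ldha, Pfkl and Pfkp no longer passed, and Slc2a3 passed instead. It was higher in the mutant on days 4, 5 and 6. Slc2a3 had 230.3, 227 and 317 scaled RPKM on mutant day 4, against 221, 168 and 160.3 on wild-type day 4 (0.49 ± 0.18 SE, adjusted p = 0.0484). On day 5 it had 210.5, 190.4 and 283 in the mutant, against 148, 144 and 146 in wild type (0.62 ± 0.18, adjusted p = 0.0135). On day 6 it had 221, 128 and 157 in the mutant, against 126, 107 and 89.01 in wild type (0.63 ± 0.18, adjusted p = 0.00967). Mutant and wild-type libraries did not overlap on any of the 3 days, and the narrowest gap was on day 6. The highest mutant values on days 4 and 5 belonged to the 2 libraries with heart transcripts. Without replicate 3 alone, the difference was 0.33 on mutant day 4 (adjusted p = 0.255) and 0.45 on mutant day 5 (adjusted p = 0.0917), and neither passed. With all 5 such libraries left out, the same differences had adjusted p = 0.107 on day 4 and adjusted p = 0.0214 on day 5. Scaled to the same sum, the libraries gave no call on day 4 (adjusted p = 0.182) or day 5 (0.0737), and without scaling the day 4 call was also lost (0.125). The day 4 call was lost too without wild-type replicate 2 (0.148) or replicate 3 (0.184). Fitted on the compared libraries alone, Slc2a3 did not pass on day 4 (0.177), day 5 (0.0619) or day 6 (0.0938). On day 6 every mutant library carried heart transcripts, so no value without them can be given, and the call was lost without mutant replicate 1 (0.41, adjusted p = 0.102) or wild-type replicate 3 (0.50, adjusted p = 0.0642), the wild-type library with red-cell transcripts.

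Apart from Slc2a3, 1 gene differed on day 4, 1 on day 5 and none on day 6, so the counts were 2, 2 and 1 of 10 where 22, 20.8 and 26.4% of all genes differed. These counts are at or below the background. Hk1 was lower on day 4, with 7.58, 7.05 and 3.83 scaled RPKM in the mutant, against 7.97, 9.60 and 10.1 in wild type (-0.60 ± 0.20, adjusted p = 0.0359). The lowest value again belonged to mutant replicate 3, and without it the difference was -0.31 (adjusted p = 0.295). The call was also lost with the replicate block (adjusted p = 0.059), with libraries scaled to the same sum (0.0681), and without wild-type replicate 2 (0.102) or replicate 3 (0.125). Pdk1 was lower on day 5, with 3.91, 4.17 and 5.12 in the mutant, against 4.90, 9.47 and 7.05 in wild type (-0.60 ± 0.17, adjusted p = 0.0103). The wild-type libraries were widely spread and the lowest overlapped the mutant range. Without wild-type replicate 2 the difference was -0.39 (adjusted p = 0.123), and without mutant replicate 1 it was -0.53 (adjusted p = 0.0574). On day 4 Pdk1 had 4.18, 4.28 and 5.76 in the mutant, against 6.20, 6.94 and 6.64 in wild type, a difference of -0.45 ± 0.17 that did not pass (adjusted p = 0.0555) although the libraries did not overlap. It passed there without scaling (-0.52, adjusted p = 0.0218) and without the libraries with heart transcripts (-0.58, adjusted p = 0.0282). The split of higher to lower calls was 1 to 1 on day 4 and became 0 to 2 without scaling and 0 to 1 with libraries scaled to the same sum. On day 5 it was 1 to 1 and became 0 to 1 with that last scaling. Slc2a1 did not pass at any stage: on day 5 it had 666, 627 and 1101 in the mutant, against 527, 663 and 665 in wild type, and the highest library is mutant replicate 3 with its heart transcripts.

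On average over the 5 stages, 4 of the 10 genes differed, where 53% of all genes did. Slc2a3 (0.33 ± 0.08 SE, adjusted p = 0.00103), Pfkp (0.32 ± 0.07, adjusted p = 0.000278) and Pgk1 (0.26 ± 0.09, adjusted p = 0.0131) were higher in the mutant. Hk1 was lower (-0.29 ± 0.09, adjusted p = 0.00802). Dependence of the mutant difference on stage was tested with an F test for each gene. It passed for 5 of the 10 genes, where 42.2% of all genes passed. Pdk1 had the lowest adjusted p, 0.00971, with a difference that ran 0.41, -0.10, -0.45, -0.60 and -0.10 over ESC and days 3 to 6. Slc2a3 (adjusted p = 0.0207) ran -0.27, 0.20, 0.49, 0.62 and 0.63. It did not pass without scaling (adjusted p = 0.16), with libraries scaled to the same sum (0.265), without mutant ESC replicate 1 (0.0521) or without wild-type ESC replicate 2 (0.0571). Pgk1 (adjusted p = 0.0248) ran 0.20, 0.85, 0.43, -0.18 and 0.01, with its peak on day 3, and did not pass without mutant day 3 replicate 3 (0.0664) or wild-type day 3 replicate 1 (0.0754). Ldha (adjusted p = 0.0445) and Pfkp (adjusted p = 0.0489) sat close to the threshold and were lost under 24 and 28 of 39 alternatives. Leaving out the 5 libraries with heart transcripts removes mutant day 6 altogether, so the F test then covers only ESC and days 3 to 5. In that different test Pgk1 (adjusted p = 0.052) and Ldha (0.0696) did not pass, and Hk2 (0.0278) and Pfkl (0.0451) did. Loss of the stage and loss of the heart transcripts cannot be told apart there.

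**Figure D4:**
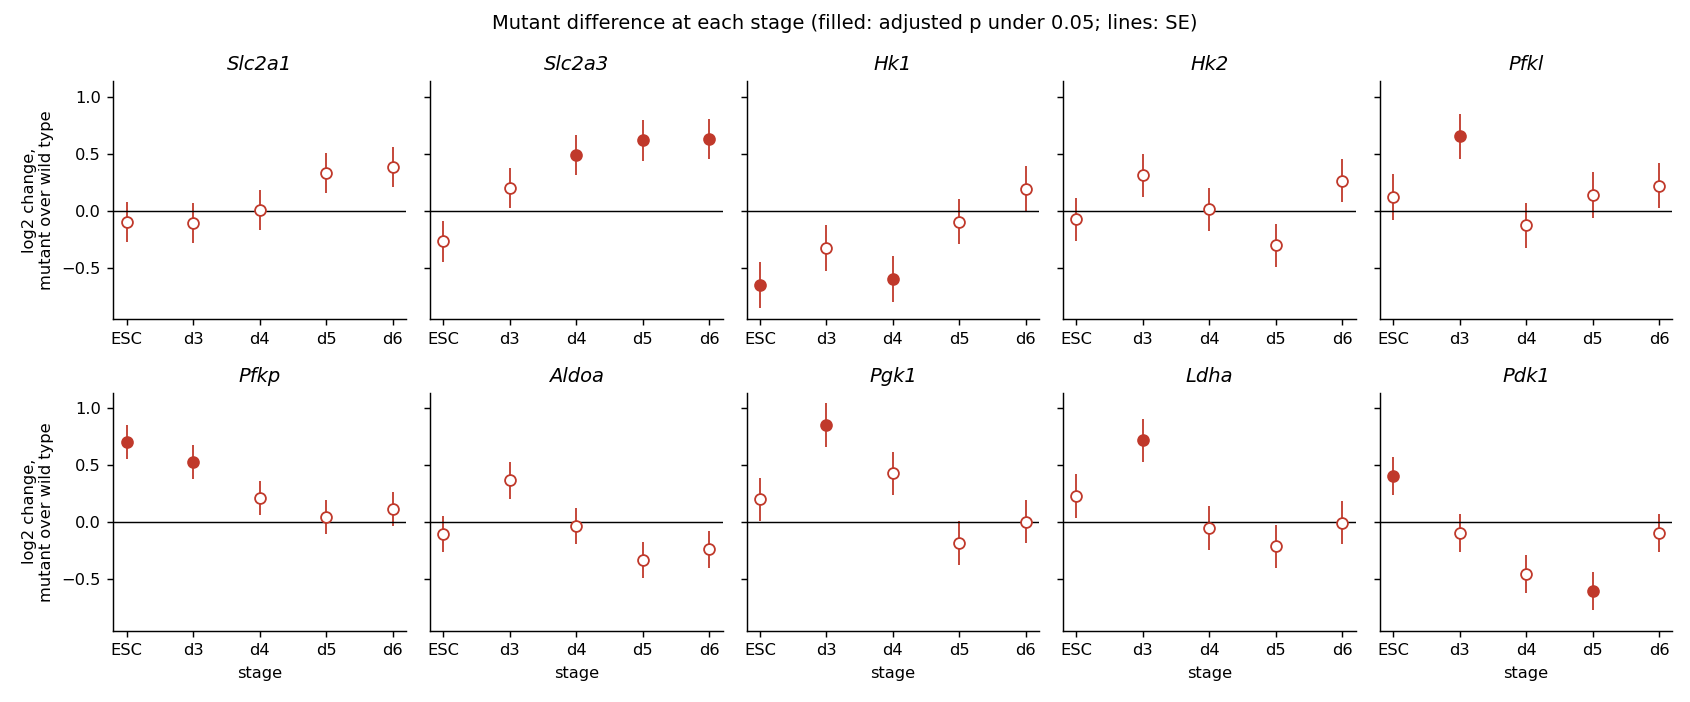
Log2 change, mutant over wild type (y axis), of each gene by stage; points are limma estimates, lines their standard errors, and filled points have an adjusted p under 0.05. Filled points stand at ESC and day 3 for Pfkp, at day 3 for Pgk1, Ldha and Pfkl, at days 4 to 6 for Slc2a3, at ESC and day 4 for Hk1 (below 0), and at ESC (above 0) and day 5 (below 0) for Pdk1.

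Other genes of the pathway were read from lists of textbook members, counted among the genes that passed the filter. Of 19 other glycolytic enzymes, 14 were kept. On day 3, 3 of the 14 were higher in the mutant and none lower, where 6.2% of all genes were higher, and the median log2 difference was 0.27, where that of all genes was -0.01. Aldoc, the brain aldolase, had 52.6, 52.98 and 56.3 scaled RPKM in the mutant, against 18.9, 24.99 and 24.2 in wild type (1.24 ± 0.19 SE, adjusted p = 6.06e-05). Pgam1, the phosphoglycerate mutase, was at 0.46 ± 0.12 (adjusted p = 0.00883) and the muscle enolase Eno3 at 0.53 ± 0.17 (adjusted p = 0.0322). On days 5 and 6 the higher genes included the muscle forms Eno3 (1.04 and 0.96) and Pgam2 (1.00 and 2.00). The genes that passed were not only these: Bpgm was higher on day 5 (0.37 ± 0.10, adjusted p = 0.0102). Adpgk was lower on day 6 (-0.42 ± 0.12, adjusted p = 0.00851). Heart transcripts were in mutant replicate 3 alone on day 5 and in every mutant library on day 6. Eno3 was also higher on day 4 (0.81 ± 0.17, adjusted p = 0.00123) and lower in mutant ESCs (-1.04 ± 0.17, adjusted p = 2.48e-05). The part of the heart transcripts in these differences was not tested. Of 11 other hexose transporters 4 were kept. Slc2a8 was higher in the mutant on day 5 (0.83 ± 0.20, adjusted p = 0.00344) and day 6 (0.57 ± 0.20, adjusted p = 0.0353). The insulin-responsive carrier Slc2a4, known from muscle and fat, was higher on day 6, with 2.17, 2.47 and 1.91 in the mutant, against 1.01, 0.67 and 1.04 in wild type (0.93 ± 0.13, adjusted p = 1.18e-05). The lactate and pyruvate carrier Slc16a1 was lower on days 5 and 6 (-0.84 and -0.98), and on day 6 it had 26.2, 18.8 and 27.4 in the mutant, against 38.96, 67.2 and 40.7 in wild type.

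Targets of HIF outside glycolysis were also higher in the mutant on day 3. Of 17 listed, 15 were kept, and on day 3, 8 of the 15 were higher in the mutant and none lower, with a median log2 difference of 0.56, where 6.2% of all genes were higher. Ero1l, an oxidase of the endoplasmic reticulum, had 41.4, 47.03 and 35.5 scaled RPKM in the mutant, against 6.67, 8.46 and 7.39 in wild type (2.38 ± 0.29, adjusted p = 2.97e-06). Stc2, a secreted glycoprotein, was at 1.24 ± 0.21 (adjusted p = 0.000207) and the collagen prolyl hydroxylase P4ha1 at 1.00 ± 0.22 (adjusted p = 0.00241). On day 5 the same list held 4 lower genes and none higher, with a median of -0.24, where 10.9% of all genes were lower. Ndrg1 then had 2.91, 3.39 and 7.99 in the mutant, against 12.1, 34.5 and 23.3 in wild type (-2.18 ± 0.35, adjusted p = 6.81e-05), and Ankrd37 was at -1.50 ± 0.32 (adjusted p = 0.00134). Hif1a itself was higher in mutant ESCs, with 5.02, 7.19 and 7.33, against 2.46, 2.58 and 3.01 in wild-type ESCs (1.13 ± 0.18, adjusted p = 1.66e-05), and the prolyl hydroxylase Egln1, which marks HIF for degradation, was lower there (-1.41 ± 0.25, adjusted p = 6.64e-05). The listed targets of lowest adjusted p in ESCs were higher in the mutant too. They were Kdm3a (0.79 ± 0.13, adjusted p = 4.14e-05), Ero1l (1.29 ± 0.29, adjusted p = 0.000874) and Mxi1 (0.37 ± 0.13, adjusted p = 0.0257). In ESCs 22.4% of all genes were higher and 23.1% lower, and the rest of the list is not described for that stage. On day 3, when targets were higher as well, neither Hif1a nor Egln1 passed. Egln1 was lower again on day 4 (-0.87 ± 0.25, adjusted p = 0.0141). It was also lower on day 5 (-0.76 ± 0.25, adjusted p = 0.0308), when targets were lower and Hif1a did not pass. The part of either gene in the target differences was not tested. The glucose-responsive genes Txnip, which restrains glucose uptake, and Arrdc4 were higher on day 3. Txnip had 86.9, 82.8 and 81.8 in the mutant, against 38.2, 43.2 and 43.1 in wild type (1.01 ± 0.14, adjusted p = 2.66e-05), and Arrdc4 was at 1.11 ± 0.16 (adjusted p = 2.56e-05).

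Of 16 tricarboxylic acid cycle genes, all kept, none was higher and 1 lower on day 3, with a median of -0.01, where 16.3% of all genes differed. On day 6, 6 were lower and none higher with a median of -0.22, where 26.4% of all genes differed either way. In ESCs 2 were higher and 9 lower with a median of -0.38, where 22.4% of all genes were higher and 23.1% lower and the median of all genes was -0.10. Idh3g was at -0.59 ± 0.09 (adjusted p = 1.24e-05). Among 10 genes of pyruvate dehydrogenase and its control, Pdk1 included, 2 were higher and none lower on day 3, where 6.2% of all genes were higher. They were the E1 subunit Pdhb (0.70 ± 0.12, adjusted p = 0.000159) and the E2 subunit Dlat (0.55 ± 0.13, adjusted p = 0.0046). On day 6 the kinases Pdk2 (0.68) and Pdk3 (0.50) were higher. Pdk1 held 21.3 ± 2.08% of the RNA of the 4 kinases on mutant day 6, against 30.97 ± 4.09% on wild-type day 6. Of 4 kept genes that set fructose 2,6-bisphosphate, the activator of phosphofructokinase, Pfkfb3 was higher (0.62 ± 0.19, adjusted p = 0.0253) and Pfkfb4 lower (-0.41 ± 0.12, adjusted p = 0.018) on day 3. In the pentose phosphate pathway, 1 of 8 genes was higher and 2 lower on day 3, where 16.3% of all genes differed either way. Tkt was at 0.66 and Pgls at -1.10. The mitochondrial phosphoenolpyruvate carboxykinase Pck2, listed under gluconeogenesis, was higher from day 3 on, with 95.7, 79.2 and 84.1 on mutant day 3, against 23.6, 25.2 and 32.6 on wild-type day 3 (1.66 ± 0.19, adjusted p = 1.38e-06).

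**Figure D5:**
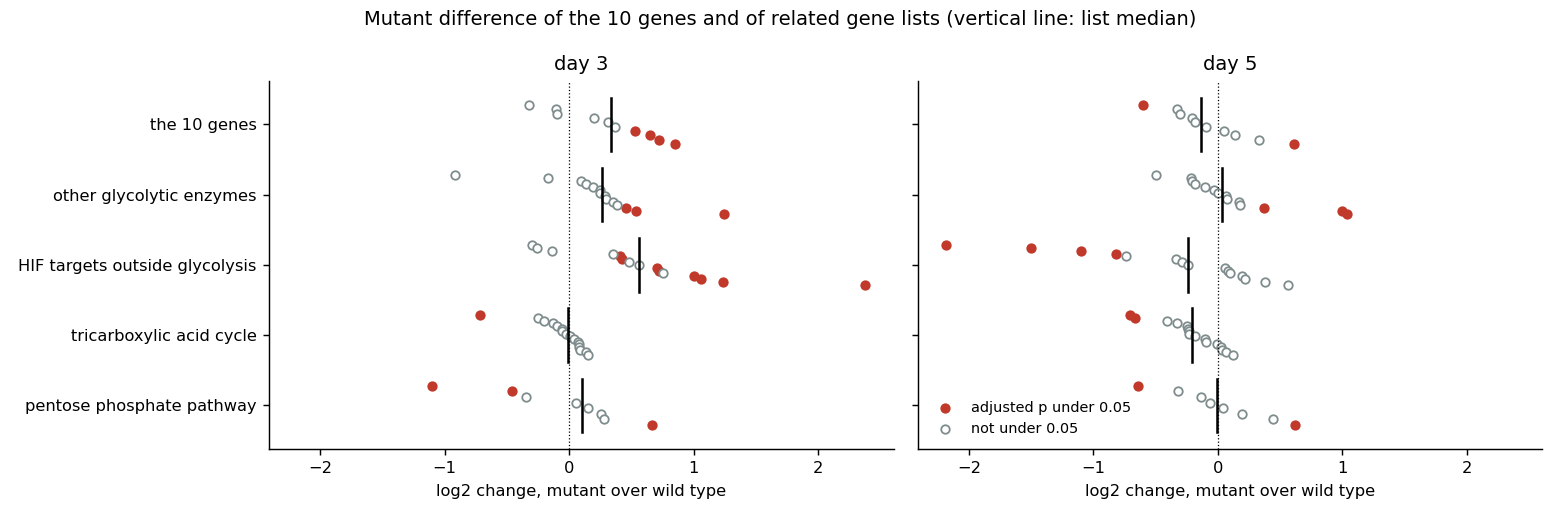
Log2 change, mutant over wild type (x axis), on day 3 (left) and day 5 (right) for the 10 genes and 4 related lists (rows); each circle is a gene, filled where the adjusted p is under 0.05, and the vertical line is the list median. On day 3 the filled circles of the 10 genes, the other glycolytic enzymes and the HIF targets all lie to the right of 0, and on day 5 those of the HIF targets lie to the left.

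The members were compared with each other as a description, across libraries that share stage, genotype and normalisation. Pgk1 and Ldha followed each other most closely, with Pearson r = 0.973 over the 30 libraries, 0.83 over the 24 libraries of days 3 to 6 and 0.898 for the deviations of libraries from their group means. Aldoa moved with both, with within-group r = 0.822 to Pgk1 and 0.821 to Ldha. The trio thus varied together also between replicates of 1 group, wild-type day 5 being an example: Pgk1 had 742, 1342 and 1063 scaled RPKM there and Ldha had 770.4, 1169 and 973. Slc2a1 ran against Hk2 over all libraries (r = -0.942), and over days 3 to 6 alone r was -0.23. Over all libraries r with the other members ran from -0.43 to 0.416 for Slc2a3 and from -0.256 to 0.439 for Pdk1. Within groups, Slc2a3 reached 0.529 with Slc2a1, and Pdk1 reached 0.589 with Slc2a1, 0.55 with Pgk1 and 0.519 with Ldha.

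Across all named genes kept by the filter, those whose log2 group means over the 10 groups were most like each member are given by Pearson r. For Slc2a1 these were Ano10 (0.997), Pctp (0.996) and Tbc1d7 (0.996). Hk1 was most like Hif1an (0.992), Tmem173 (0.991) and Tyk2 (0.99), and Hk2 was most like Ddx11, Ago1 and Sh3d19 (0.994 each). For Pfkl they were Katnal2 (0.99), Ddit4 (0.984) and Klhl23 (0.98), and for Pfkp Nepro (0.99), Kit (0.99) and Pms2 (0.988). Aldoa was nearest to Epcam (0.991), Galnt3 (0.988) and Pla2g12a (0.985), Pgk1 to Tdrkh (0.991), Rdh11 (0.987) and Aldoc (0.985), and Ldha to Egln3 (0.985), Pgk1 (0.98) and Fopnl (0.977). Slc2a3 had less close matches in Ddit4l (0.953), Ltb4r2 (0.95) and Hes1 (0.949). Pdk1 had the least close, Uri1 (0.817), Rab19 (0.803) and Tmem74b (0.786). Each r rests on 10 points, of which 2 are the ESC groups, set apart from the rest for most of these genes.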

How the data were processed

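The 30 RNA libraries were read from 1 deposited table of RPKM, read counts per gene length and library total, computed by the authors. Per the submitters' processing notes, STAR, DESeq2 and mm10 were used, with versions, annotation, counting and strand setting not given in the sources used here. Of 52636 Ensembl IDs, 52403 had a symbol. Groups came from the sample titles.

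RPKM were divided by a median-ratio size factor per library (0.888 to 1.106, 11618 genes). Genes at 1 or more in at least 3 libraries were kept, and log2(scaled RPKM + 0.5) went into a limma 3.58.1 fit (R 4.3.3) of the 30 libraries, with a mean for each group, a mean-variance trend and Benjamini-Hochberg adjustment. Fold changes on this scale understate the change of low genes. The fit was tested on simulated data. Depth was inferred from values of single-exon genes, of which 82.7 to 93.3% of the low ones came out as whole reads within 0.1, so no count test was run.

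The 10 genes and all lists were chosen with earlier results of these data known. Other genes named are up to 3 per list and comparison, ranked by adjusted p, the 2 most abundant markers of a list, the 3 most similar genes per member, and Hdn. T, Eif2s3y and the family partners Pfkm and Ldhb were taken from those lists after their values were seen. Alternatives were scaling, pseudocount, filter, trend, a fold condition, fewer libraries, a replicate block and leaving out libraries.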

Additional observations from a re-analysis of the deposited data

Results flagged for a closer look

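The mutant difference depended on stage for 5 of the 10 genes in the F test over the 5 stages (limma, adjusted over all genes): Pdk1 with adjusted p = 0.00971, Slc2a3 with 0.0207, Pgk1 with 0.0248, Ldha with 0.0445 and Pfkp with 0.0489. The share of all genes that passed this test was 42.2%. Slc2a3 did not pass without scaling (adjusted p = 0.16) or with libraries scaled to the same sum (0.265), and Ldha and Pfkp did not pass under 24 and 28 of 39 alternatives. Pdk1 was higher in mutant than in wild-type ESCs and lower on day 5, Slc2a3 was lower by a difference that did not pass in ESCs (-0.27) and higher on days 4 to 6, and Pgk1 and Ldha were highest in the mutant on day 3. Pfkp was higher in ESCs and on day 3 and differed by at most 0.21 later.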

How the results depend on the processing

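Over 2910 values of the 10 genes under the alternatives, 2728 kept their side of the threshold, 141 lost it and 41 gained it. Of the 2520 that are differences, 91 changed sign, all in differences of at most 0.338 that passed neither as reported nor under that alternative. The counts of genes called moved more. Requiring a log2 change of at least 1 gave 0 for every mutant comparison with wild type and for mutant day 4 against day 3. Fitting the compared libraries alone gave 0 on days 4, 5 and 6 and 2 for both steps between days 3 and 4. Scaling to the same sum gave 1 on days 4 and 5, and 1 for mutant day 6 against day 5. No scaling gave 1 for mutant day 5 against 4 and for day 6 against 5, and no trend gave 1 for day 5 against 4. Without a filter, day 4 gave 0 and stage dependence 3. Without the 5 libraries with heart transcripts, day 4 gave 1, day 5 gave 3 and mutant day 5 against 4 gave 1. The average gave 6, but without mutant day 6 it covers only ESC and days 3 to 5. The cause was not tested.

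Same-numbered mutant and wild-type libraries did not deviate together at every stage (r from -0.523 to 0.409). These r compare genotypes within a stage, so they cannot decide whether a replicate number marks a shared culture or batch. Links between same-numbered libraries across stages were not tested. With the replicate block, ESCs gave 2 (Pdk1 did not pass), day 4 gave 1 (Hk1 did not pass), wild-type day 4 against 3 gave 1, mutant day 5 against 4 gave 2, mutant day 6 against 5 gave 1 and stage dependence 3.

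Leaving out single libraries gave 1 to 2 genes in ESCs, 2 to 4 on day 3, 0 to 2 on day 4, 1 to 3 on day 5, 0 to 1 on day 6, 4 to 6 on average and 2 to 6 for stage dependence. For the mutant steps it gave 9 to 10, 2 to 4, 0 to 1 and 0 to 1, and for wild type 9 and 0 throughout. Over all genes, 62 of 291 counts moved by over 1.5 times. Scaling to the same sum moved the median change of all genes from ESC to day 3 to -0.30 in the mutant and -0.20 in wild type. Pfkp and Pdk1 were at low levels, where the 0.5 added before the log2 understates changes. Their standard errors in the mutant comparisons (0.15 and 0.17) were below those of the abundant Pgk1 and Ldha (0.19 each).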
